A study of Homo sapiens with 12 samples.

Results

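The 3 libraries that carry replicate number 1 in siControl, siNELFA and siYAP were compared with the 6 libraries that carry numbers 2 and 3 in the same groups, 9 of the 12 libraries of the series. The siNELFA+siYAP libraries were left out, since their library names all carry the number 1 followed by a second index. All libraries hold total RNA of MDA-MB-231, a triple-negative breast cancer cell line of mesenchymal type, from which ribosomal RNA was removed before stranded library construction. Cells of siControl were transfected with a non-targeting pool of siRNA. Cells of siNELFA received a pool against NELFA, which encodes a subunit of the negative elongation factor that holds RNA polymerase II near promoters, and cells of siYAP a pool against YAP1, the transcriptional coactivator of the Hippo pathway. The labels give 50 to 100 nM siRNA and harvests at 48 h and 72 h for every library alike, whereas the study's methods give 72 h. The main tests below use the siRNA group as a block, so they take differences between libraries that share a knockdown. Ranges and overlaps set the 3 replicate 1 libraries against all 6 others and so span the knockdowns.

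The study's methods describe the numbers as independent biological replicates of 1 cell line, and the labels do not say which cultures, days, extractions or sequencing runs they share. Whatever differed between the numbers (passage, density at harvest, time, extraction or library preparation) cannot be told apart here. If a number stands for a culture round, replicate 1 is a single round, and the p-values below do not measure the spread between rounds. Replicate 1 was singled out because earlier results of these libraries showed it standing apart, so that it differs is the reason for the comparison, and which functions differ is what the comparison describes. In bulk RNA, fewer cells in a state and less RNA per cell in that state cannot be told apart either.

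Proliferating cells make the enzymes and scaffolds of DNA replication under the control of E2F factors as they pass from G1 to S phase, and they make the bulk of their histones from messenger RNAs that end in a stem-loop in place of a poly(A) tail and are present mainly in S phase. Libraries made after removal of ribosomal RNA, as here, capture these histone messages together with polyadenylated ones. MALAT1 and NEAT1 are abundant long RNAs that stay in the nucleus, where MALAT1 collects in nuclear speckles and NEAT1 forms the core of paraspeckles, and both are used as a measure of the nuclear share of an RNA sample. Slowing of growth, crowding, low oxygen and lack of nutrients each move known sets of genes, which are used here as lists.

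Of 19022 genes that passed the filter on low counts, 4237 (22.3%) were higher and 4259 (22.4%) lower in replicate 1 at an adjusted p under 0.05, by edgeR's quasi-likelihood test with the siRNA group as a block. More than 2-fold changes accounted for 1700 of the higher and 1381 of the lower genes. For 3242 genes (17%) all 3 replicate 1 libraries were above all 6 others, and for 3336 genes (17.5%) all 3 were below. Counts of list members below are to be read against these shares. Replicates 2 and 3 differed from each other far less often, with 324 of the same genes (1.7%) called in either direction. The median log2 fold change over all genes was -0.03. Across 13008 genes averaging at least 50 counts, shifts of replicate 1 in siControl and siNELFA correlated by r = 0.81, those in siControl and siYAP by 0.77, and those in siNELFA and siYAP by 0.88, where the groups share no library and genes are not independent replicates. A test of whether the shift differed between groups called 0 genes (0%), with 2459 at an unadjusted p under 0.05 and 49 called by DESeq2's likelihood ratio test. With so few libraries in each group this test can miss differences of the sizes given below, so 0 calls do not show that the shifts were equal.

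Totals ran from 9608145 to 13984518 counts in replicate 1 and from 13546632 to 18803104 in the others, so replicate 1 was shallower in every group. With all libraries thinned to the smallest total, 4169 genes were higher and 4068 lower. Levels are given below as CPM, counts scaled to the TMM-normalised size of each library, with replicate 1 always in the order siControl, siNELFA and siYAP. Both siRNA targets followed the labels. NELFA was at 25.3 CPM in siControl replicate 1 against 27.4 and 27.8 in replicates 2 and 3, 9.95 against 9.05 and 7.15 in siNELFA, and 33.4 against 25.1 and 22.1 in siYAP. YAP1 was at 302 CPM in siControl replicate 1 against 268 and 246 in replicates 2 and 3, 292 against 247 and 255 in siNELFA, and 45.7 against 45.3 and 37.5 in siYAP. Neither target was called by edgeR between replicate 1 and the others (log2 fold change 0.23 with adjusted p = 0.22 for NELFA and 0.20 with adjusted p = 0.0833 for YAP1). YAP1 was nevertheless highest in replicate 1 of every group. NELFA was highest there in siNELFA and siYAP and lowest in siControl.

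The nuclear RNAs stood apart in the same way in every siRNA group. MALAT1 was at 45830 CPM in siControl replicate 1 against 9979 and 7900 in replicates 2 and 3, 34400 against 8013 and 7161 in siNELFA, and 32460 against 9332 and 8937 in siYAP. NEAT1 was at 7888 CPM in siControl replicate 1 against 1697 and 1511 in replicates 2 and 3, 6053 against 1651 and 1290 in siNELFA, and 6477 against 1388 and 1479 in siYAP. The 3 replicate 1 libraries lay above the other 6 for both RNAs with no overlap, and the rise was 4.37-fold for MALAT1 (log2 fold change 2.13, SE 0.090, adjusted p = 9.81e-10) and 4.51-fold for NEAT1 (log2 fold change 2.17, SE 0.083, adjusted p = 3.64e-10). MALAT1 alone took 3.14% to 4.41% of all counts in replicate 1 and 0.707% to 1.02% in the others. Between replicates 3 and 2 neither RNA was called. The comparison and these marker RNAs were chosen with earlier results of these data known, so their p-values are not independent support.

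**Figure D1:**
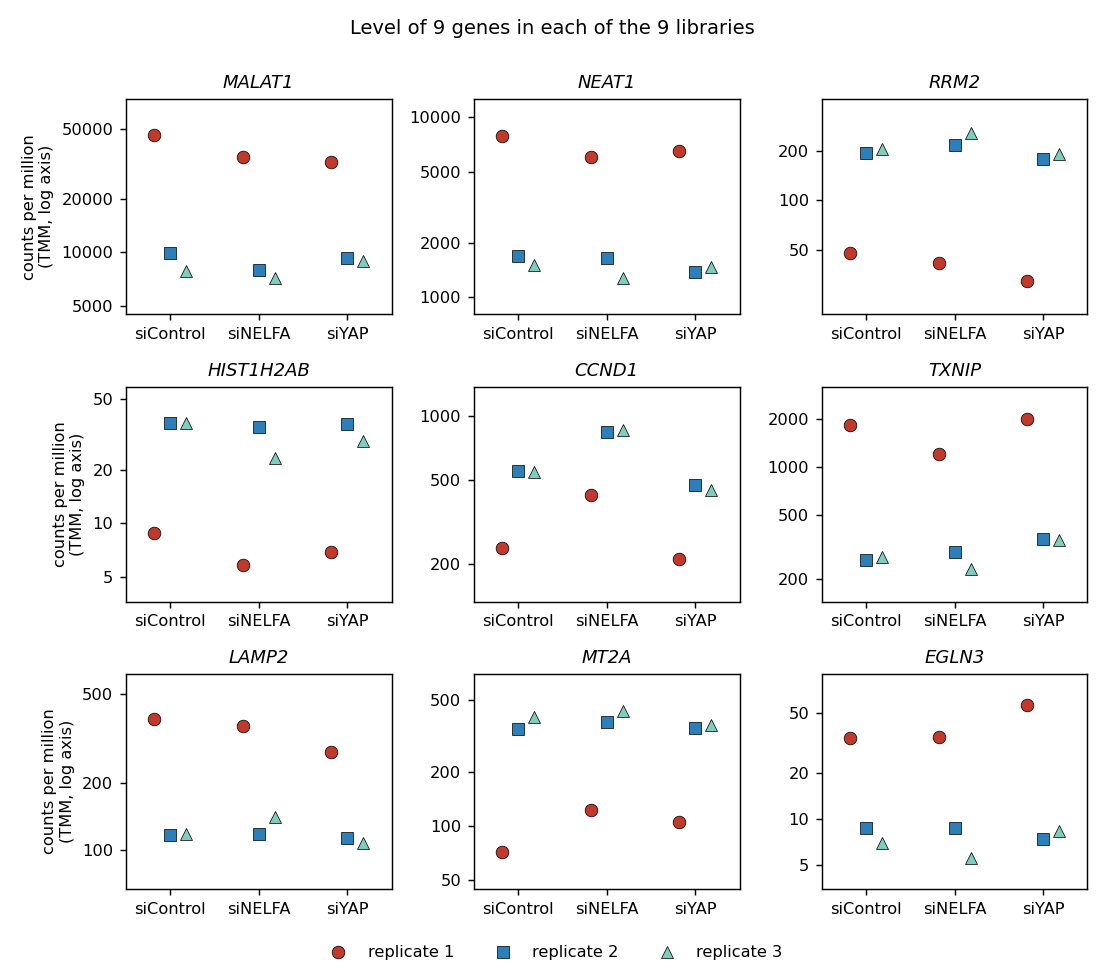
Level of 9 genes in CPM (TMM-normalised, log axis) in each of the 9 libraries, by siRNA group on the x axis, with 1 point per library and the replicate number as colour and shape. In every panel the 3 replicate 1 libraries lie on one side of the other 6, for example RRM2 at 32.2 to 47.6 against 179.7 to 259.

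The rise did not extend to all RNAs kept in the nucleus. Among 11 tested long RNAs listed for nuclear retention, 7 were higher, 2 lower and 2 not called, with a median log2 fold change of 0.42. KCNQ1OT1, the antisense RNA of an imprinted domain, was at 325, 318 and 362 CPM in replicate 1 and at 156 to 226 (median 189) in the other 6 libraries (log2 fold change 0.84, adjusted p = 6.39e-06). The 2 lower members were long RNAs as well, of which DLEU2 had a log2 fold change of -0.72 (adjusted p = 0.0103) and PVT1 of -0.36 (adjusted p = 0.0063). Of 13 proteins of paraspeckles and nuclear speckles, 7 were lower and 2 higher. The paraspeckle proteins SFPQ and PSPC1, which bind NEAT1, had log2 fold changes of -0.79 (adjusted p = 2.02e-05) and -0.77 (adjusted p = 4.92e-05), and HNRNPM, a splicing regulator, of -1.11 (adjusted p = 3.53e-07), with all replicate 1 libraries below the other 6 for each of them. SRRM1 and SRRM2, scaffold proteins of speckles, were the 2 higher members, at 0.37 and 0.23, and this number became 0 without siNELFA replicate 1 or without replicate 3.

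The small and stable RNAs, not all of them nuclear, did not rise as a class. Of 26 tested spliceosomal snRNAs and other stable RNAs, 10 were lower and 1 higher, with a median of -0.69, and of 203 snoRNAs 17 were lower and 8 higher, against shares of 22.4% and 22.3% over all genes. Most RNAs of the first list had few counts. Among its 10 members averaging at least 50 counts 2 were lower, and by limma on log2 TPM 3 of the 26 were. For the snoRNAs limma on log2 TPM called 6 lower and 5 higher, limma-voom 11 lower, and the stricter count filter, which kept 36, left 8 lower. RN7SK took 1.06% to 1.22% of counts in replicate 1 and 1.08% to 1.30% in the others. These RNAs have near-identical copies between which reads may be split, and RN7SK, RMRP and RN7SL1 each carry the same counts under a pair of identifiers, so single members are uncertain. RMRP, the RNA of a ribonuclease that acts in ribosomal RNA processing, had a log2 fold change of -0.55 (adjusted p = 0.00147), and RNVU1-14, a variant U1 RNA, of -2.48 (adjusted p = 0.000128). Among 26 splicing genes that carry detained introns in many cell types, 9 were higher and 7 lower. CLK1, a kinase of splicing factors, was at 174, 141 and 127 CPM in replicate 1 and 52.7 to 62.2 (median 57.6) in the others (log2 fold change 1.33, adjusted p = 8.48e-08), whereas SRSF3 and SRSF7, both splicing factors, had values of -0.71 and -0.60. Of 25 snoRNA host genes and cytoplasmic long RNAs 4 were higher and 4 lower. NORAD, a cytoplasmic decoy of PUMILIO proteins, had a log2 fold change of 0.69 (adjusted p = 1.22e-05) and SNHG4 of -1.23 (adjusted p = 3.01e-06). Without siControl replicate 1 the higher snoRNAs numbered 4 and without siYAP replicate 1 they numbered 13, with 10 lower, and without siYAP replicate 1 3 of the splicing genes were lower. The higher snoRNAs numbered 5 without siNELFA replicate 1 or without replicate 3, the lower snoRNAs 11 without replicate 3, and 4 splicing genes were lower without replicate 2.

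The genes of DNA replication were lower in replicate 1 without exception. All 45 listed genes of the G1/S transition and of DNA synthesis were called lower (100%, against 22.4% of all genes). For 39 of them all 3 replicate 1 libraries lay below the other 6, against 17.5% of all genes. Their median log2 fold change was -1.34 and their range ran from -2.37 to -0.31. The lower calls numbered 41 without replicate 2 and 38 or 39 by limma on log2 TPM. RRM2, a subunit of the ribonucleotide reductase that supplies deoxynucleotides, was at 47.6 CPM in siControl replicate 1 against 194 and 206 in replicates 2 and 3, 41.4 against 217 and 259 in siNELFA, and 32.2 against 179.7 and 192 in siYAP, a 5.17-fold difference (log2 fold change -2.37, SE 0.12, adjusted p = 5.30e-09). UHRF1, which maintains DNA methylation at the fork, was at 31.4, 16.1 and 25.5 CPM in replicate 1 and at 85.9 to 146 (median 105) in the other 6 (log2 fold change -2.21, SE 0.14, adjusted p = 4.32e-08). CCNE2, a cyclin of the G1/S transition, was at 6.06, 4.15 and 4.09 and at 18.5 to 24.8 (median 21.6) (log2 fold change -2.18, SE 0.18, adjusted p = 3.32e-07). The same held for the sliding clamp PCNA, with 43.6, 28.3 and 35 against 80.5 to 114 (median 101), and for the helicase subunit MCM2, with 40.8, 32.7 and 42.2 against 88.2 to 116 (median 107). Summed over the list, levels were 1169 to 1628 CPM in replicate 1 and 2917 to 3995 in the others. Between replicates 3 and 2 the list had a median of -0.20 with 0 genes called by the same edgeR fit.

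Windows before the start sites of list members are shown because E2F binding words mark this gene group. Of the 45 genes, 38 were matched to RefSeq promoters (GRCh38.p14), and 15 of them (39.5%) held TTTCCCGC or TTTGGCGC on either strand within 250 bases before a start, against 421 of 10848 tested protein-coding genes (3.9%). The 2 members with the largest falls among those whose most upstream window held such a word were UHRF1 (chr19:4909457-4909500, plus strand) and GINS2 (chr16:85688955-85689015, minus strand), printed 5′ to 3′ with the word in capitals.
UHRF1: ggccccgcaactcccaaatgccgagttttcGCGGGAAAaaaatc
GINS2: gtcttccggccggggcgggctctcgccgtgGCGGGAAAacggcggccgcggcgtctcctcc
Both carry the word on the strand opposite to the spelling above and within 61 bases of the start. GINS2, a subunit of the replicative helicase, was at 9.3, 2.82 and 5.52 CPM in replicate 1 and at 10.3 to 30.7 (median 23.6) in the other 6. A match describes these letters and was not tested as a binding site.

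Histone messages that depend on replication were mostly lower as well. Of 71 such genes 43 passed the filter, and 40 of these (93%) were lower, 0 were higher, with a median log2 fold change of -1.53. The sum over the 71 genes was 1416, 1207 and 1377 CPM in replicate 1 of siControl, siNELFA and siYAP, and between 2139 and 3662 in the other 6 libraries. HIST1H2AB was at 8.87 CPM in siControl replicate 1 against 36.6 and 36.9 in replicates 2 and 3, 5.8 against 35 and 23.5 in siNELFA, and 6.86 against 36.1 and 29.2 in siYAP (log2 fold change -2.21, SE 0.17, adjusted p = 1.92e-07). HIST1H2AI was at 10.7, 12.1 and 10.7 in replicate 1 and 30.3 to 63.8 (median 51.1) in the others, and HIST1H2BM at 2.6, 2.82 and 3.43 and 8.96 to 19 (median 12.8). Histone genes are near-identical copies, so the values of single members are less certain than their sum. Of 9 replication-independent histone genes 5 were lower and 2 higher. H2AFX and H2AFZ, variants of H2A, had log2 fold changes of -1.36 (adjusted p = 5.49e-05) and -0.85 (adjusted p = 2.71e-06). H1F0, the linker histone that accumulates in cells that stop dividing, was higher at 451, 468 and 551 CPM against 199 to 263 (median 209) (log2 fold change 1.17, SE 0.10, adjusted p = 3.50e-07).

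The octamer word ATTTGCAT is known for the promoters of H2B genes and is shown for that reason. It was present, on either strand, in the 250 bases before the start of 7 of 10 matched H2B genes (70%), of 7 of 27 other replication-dependent histone genes (25.9%) and of 211 of 10848 tested protein-coding genes (1.9%). The windows of HIST1H2BM (chr6:27814944-27815011, plus strand) and HIST1H2BB (chr6:26043796-26043863, minus strand) carry it in capitals.
HIST1H2BM: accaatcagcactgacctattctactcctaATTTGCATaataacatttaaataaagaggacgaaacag
HIST1H2BB: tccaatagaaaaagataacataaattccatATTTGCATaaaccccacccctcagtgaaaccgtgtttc
HIST1H2BB was at 13.4, 8.3 and 9.52 CPM in replicate 1 and at 26.6 to 52.4 (median 38.3) in the other 6.

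**Figure D2:**
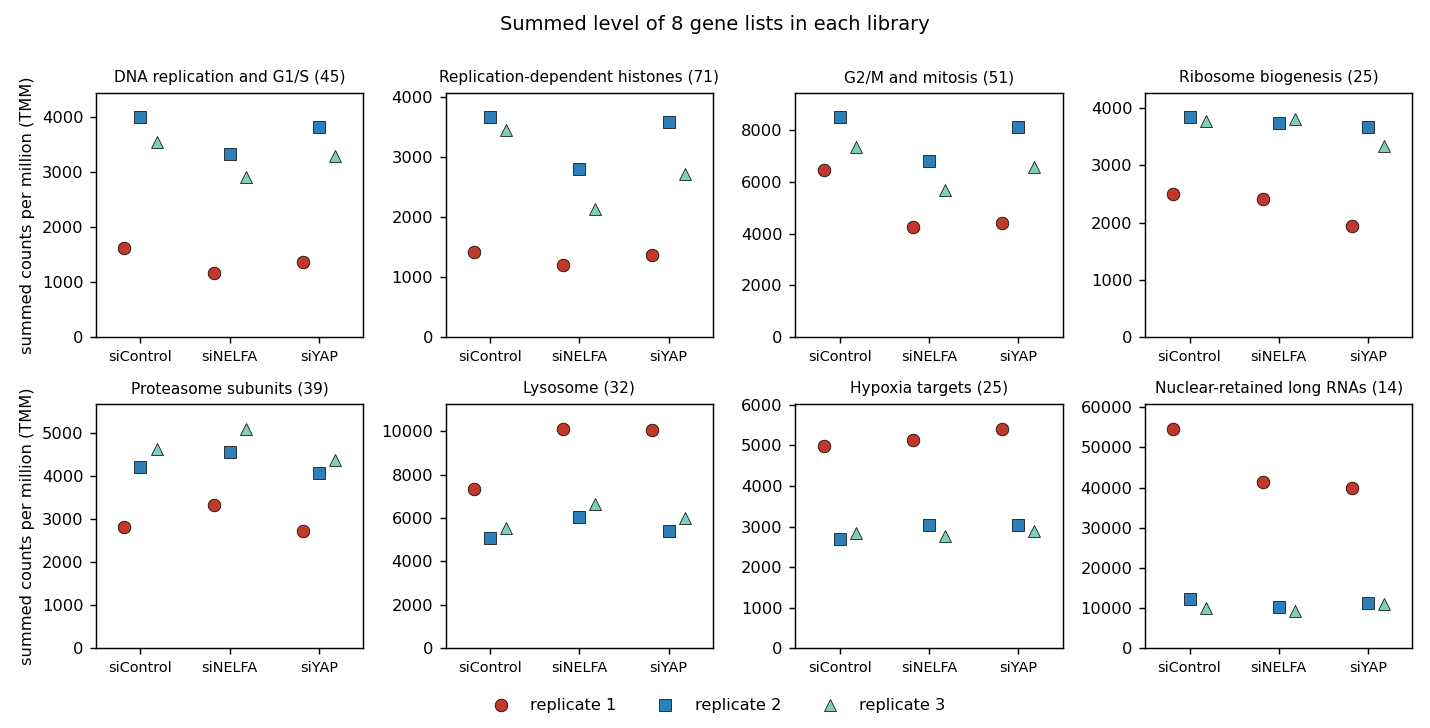
Summed level of 8 gene lists in TMM-normalised CPM (linear axis from 0) in each library, by siRNA group, with the number of genes in each list in parentheses. The sums for DNA replication, replication-dependent histones, ribosome biogenesis and proteasome subunits lie lower in all 3 replicate 1 libraries than in the other 6, those for lysosome, hypoxia targets and nuclear long RNAs lie higher, and those for G2/M overlap.

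Genes of G2 and mitosis fell less. Of 51 listed genes 39 (76.5%, against 22.4% of all genes) were lower and 0 higher, with a median of -0.51. The 39 became 27 without replicate 2 and 29 without siNELFA replicate 1 or without siYAP replicate 1. Limma on log2 TPM called 27 or 28 lower, the fit without the siRNA group term 28, and 43 were lower without replicate 3. For 19 of the 51 all replicate 1 libraries lay below the other libraries, against 17.5% of all genes. CDC20, the activator of the anaphase-promoting complex, was at 39.8, 23.1 and 42.5 CPM in replicate 1 against 44 to 112 (median 98.6) (log2 fold change -1.32, SE 0.14, adjusted p = 2.65e-06). FOXM1, a transcription factor of this phase, was at 72.4, 58.4 and 77.9 against 149 to 176 (median 162) (log2 fold change -1.23, SE 0.10, adjusted p = 2.55e-07), and CDCA8, a subunit of the chromosomal passenger complex, at 29.6, 27.2 and 17.3 against 46.4 to 61.3 (median 57.2). MKI67, the usual proliferation marker, fell by less, with 689, 391 and 561 against 739.5 to 1191 (median 1011) (log2 fold change -0.89, adjusted p = 7.14e-06), and TOP2A, the topoisomerase that disentangles chromosomes, overlapped between the 2 sides (log2 fold change -0.33, adjusted p = 0.0285). The summed level was 4248 to 6469 in replicate 1 and 5683 to 8486 in the others, so the sides overlapped. The word TTTGAA, known as the cell cycle homology region, lay within 250 bases before the start of 26 of 44 matched genes (59.1%), against 1331 of 10848 (12.3%), whereas the E2F words were found in 2 of the 44.

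Genes that rise as cells leave the cycle mostly went the other way. In a list of D cyclins and growth arrest genes 14 of 19 were higher (73.7%, against 22.3% of all genes) and 2 lower, with a median of 0.68. The 14 became 11 or 10 by limma on log2 TPM with a pseudocount of 1 or 0.1, and 4 were lower without replicate 2. TXNIP, an inhibitor of thioredoxin and of glucose uptake that is induced by growth arrest, was at 1833 CPM in siControl replicate 1 against 263 and 275 in replicates 2 and 3, 1207 against 293 and 230.1 in siNELFA, and 2011 against 353 and 348 in siYAP (log2 fold change 2.50, SE 0.10, adjusted p = 5.97e-10). The inhibitor of cyclin-dependent kinases CDKN1C was at 14.1, 17.3 and 22.6 against 2.75 to 5.83 (median 4.73) (log2 fold change 1.96, SE 0.17, adjusted p = 7.15e-07), its relative CDKN1B at 47, 43.6 and 36.1 against 19.4 to 26.5 (median 21.6) (log2 fold change 0.95, adjusted p = 1.36e-05), and the unconventional cyclin CCNG2 at 83.8, 73 and 63.8 against 21.8 to 28.6 (median 23.5). Both lower members were D cyclins, which couple growth signals to the cell cycle. CCND1 was at 238, 423 and 211 in replicate 1 and 448 to 864 (median 547) in the others (log2 fold change -1.11, SE 0.081, adjusted p = 1.13e-07), and CCND3 had a log2 fold change of -0.80 (adjusted p = 0.000133). Within each siRNA group replicate 1 was the lowest library for CCND1. CDKN1A, the inhibitor known as a p53 target, was not called, with 52.6, 169 and 129 against 79.3 to 246 (median 142).

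**Figure D3:**
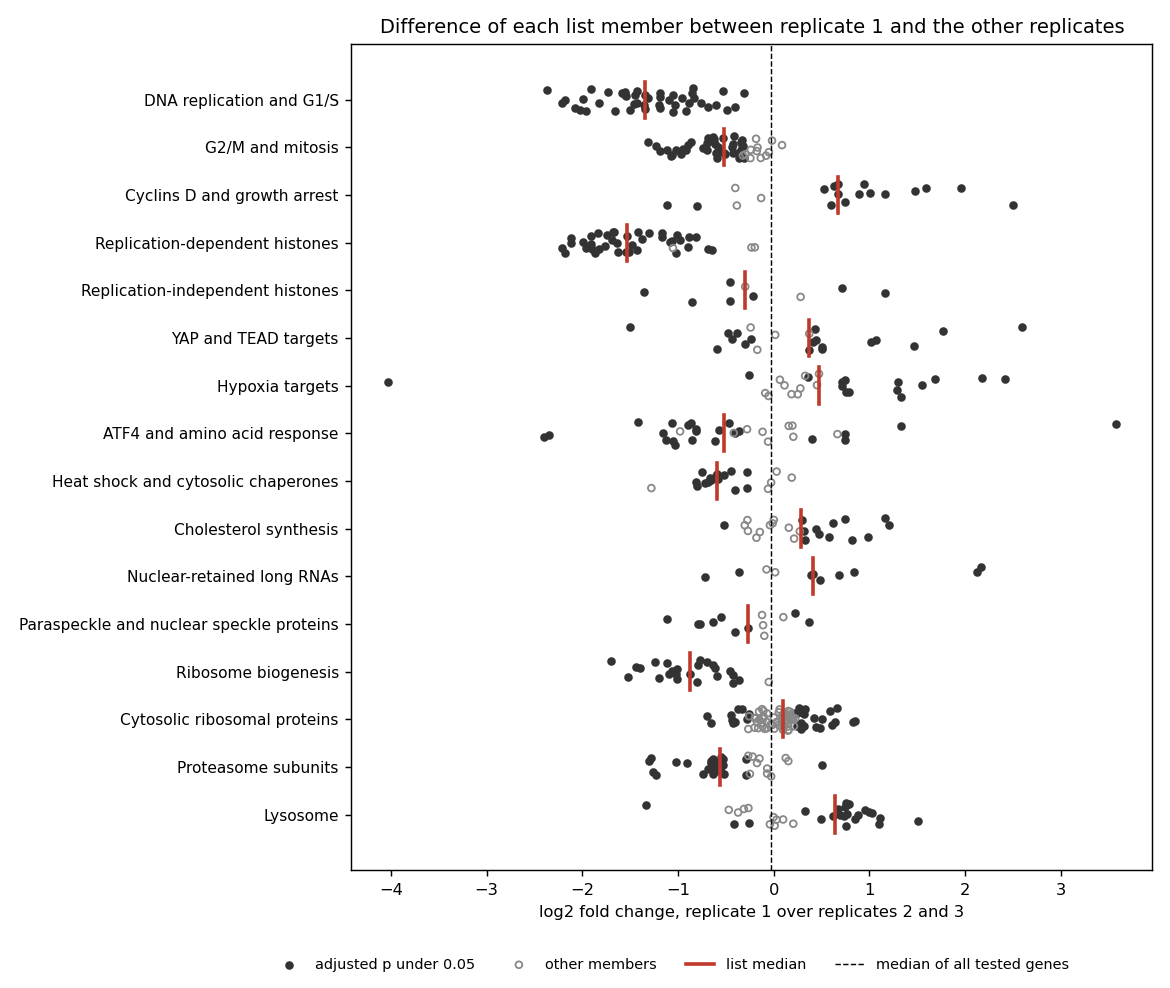
Log2 fold change of replicate 1 over replicates 2 and 3 for every tested member of 16 gene lists (x axis), 1 point per gene, filled where the adjusted p by edgeR is under 0.05, with the list median in red and the median of all tested genes (-0.03) as a dashed line. All points for DNA replication lie left of 0, and those for lysosome and for D cyclins and growth arrest lie mostly to the right.

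Production of ribosomes and turnover of proteins differed as well. All but 1 of 25 ribosome biogenesis genes were lower (24 lower, 0 higher, median -0.88). BOP1, a factor of the large subunit's assembly, was at 15.4, 20.7 and 21 CPM in replicate 1 and at 56 to 64.9 (median 61.7) in the others (log2 fold change -1.70, SE 0.13, adjusted p = 1.46e-07), with NIP7 and RRS1, which act in the same process, at log2 fold changes of -1.44 and -1.52. The mRNAs of 84 cytosolic ribosomal proteins did not share this fall, with 21 higher, 10 lower and a median of 0.10, although the 21 became 11 without siNELFA replicate 1, 10 without replicate 3 and 13 by limma on log2 TPM with a pseudocount of 0.1. RPL39 had a log2 fold change of 0.83 (adjusted p = 1.93e-06) and RPS2 of -0.69 (adjusted p = 7.71e-05). Of 37 proteasome subunits 26 were lower and 1 higher, with a median of -0.56. PSMD2, a scaffold of the regulatory particle, was at 238, 241 and 259 against 504 to 746 (median 596) (log2 fold change -1.30, adjusted p = 1.25e-06), PSMB7, a catalytic subunit, at 68.4, 91.1 and 63.6 against 154 to 229.5 (median 174), and PSMD10, an assembly chaperone, was the 1 higher member (log2 fold change 0.51, adjusted p = 0.00949).

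Lysosomal genes moved in the opposite direction to those of the proteasome. Of 32 genes 19 (59.4%, against 22.3% of all genes) were higher and 3 lower, with a median of 0.65. The 3 became 1 without replicate 3, 6 without replicate 2 or with the replicate block and 7 with all genes of at least 1 count tested. LAMP2, a membrane protein of lysosomes needed for autophagy, was at 385 CPM in siControl replicate 1 against 117 and 118 in replicates 2 and 3, 362 against 119 and 141 in siNELFA, and 277 against 114 and 108 in siYAP (log2 fold change 1.51, SE 0.093, adjusted p = 2.81e-08). CTSD, the aspartic protease of lysosomes, was at 1079, 1850 and 2249 against 680.5 to 939 (median 763) (log2 fold change 1.10, SE 0.12, adjusted p = 5.75e-06), and siControl replicate 1 was the lowest of its 3 replicate 1 libraries. SCARB2, a receptor that carries an enzyme to lysosomes, had a log2 fold change of 1.12 (adjusted p = 1.76e-07). Among the lower members ATP6V0D1, a subunit of the proton pump, was at 20.8, 16.9 and 27.1 against 45.5 to 62.8 (median 55.1) (log2 fold change -1.33, adjusted p = 7.30e-07). The list's median shift was 0.33 in siControl, 0.65 in siNELFA and 0.68 in siYAP.

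Lysosomal promoters are known for a word recognised by the factor TFEB and its relatives, whose core TCACGTG was searched on both strands. It was present before the start of 7 of 22 matched members (31.8%) and of 700 of 10848 tested protein-coding genes (6.5%). The windows of CTSD (chr11:1763938-1764004, minus strand) and GAA (chr17:80101474-80101580, plus strand) are printed with the core in capitals, and GAA holds the core on both strands at 2 places.
CTSD: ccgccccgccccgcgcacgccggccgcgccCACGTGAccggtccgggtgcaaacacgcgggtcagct
GAA: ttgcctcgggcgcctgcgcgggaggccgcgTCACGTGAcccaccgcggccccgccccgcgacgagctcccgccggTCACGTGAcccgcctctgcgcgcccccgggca
GAA, the lysosomal glucosidase, was at 32.9, 69.4 and 87.5 CPM in replicate 1 and at 31.1 to 38.9 (median 34.5) in the others (log2 fold change 0.79, adjusted p = 0.00166), and its siControl replicate 1 library lay inside the range of the others.

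**Figure D4:**
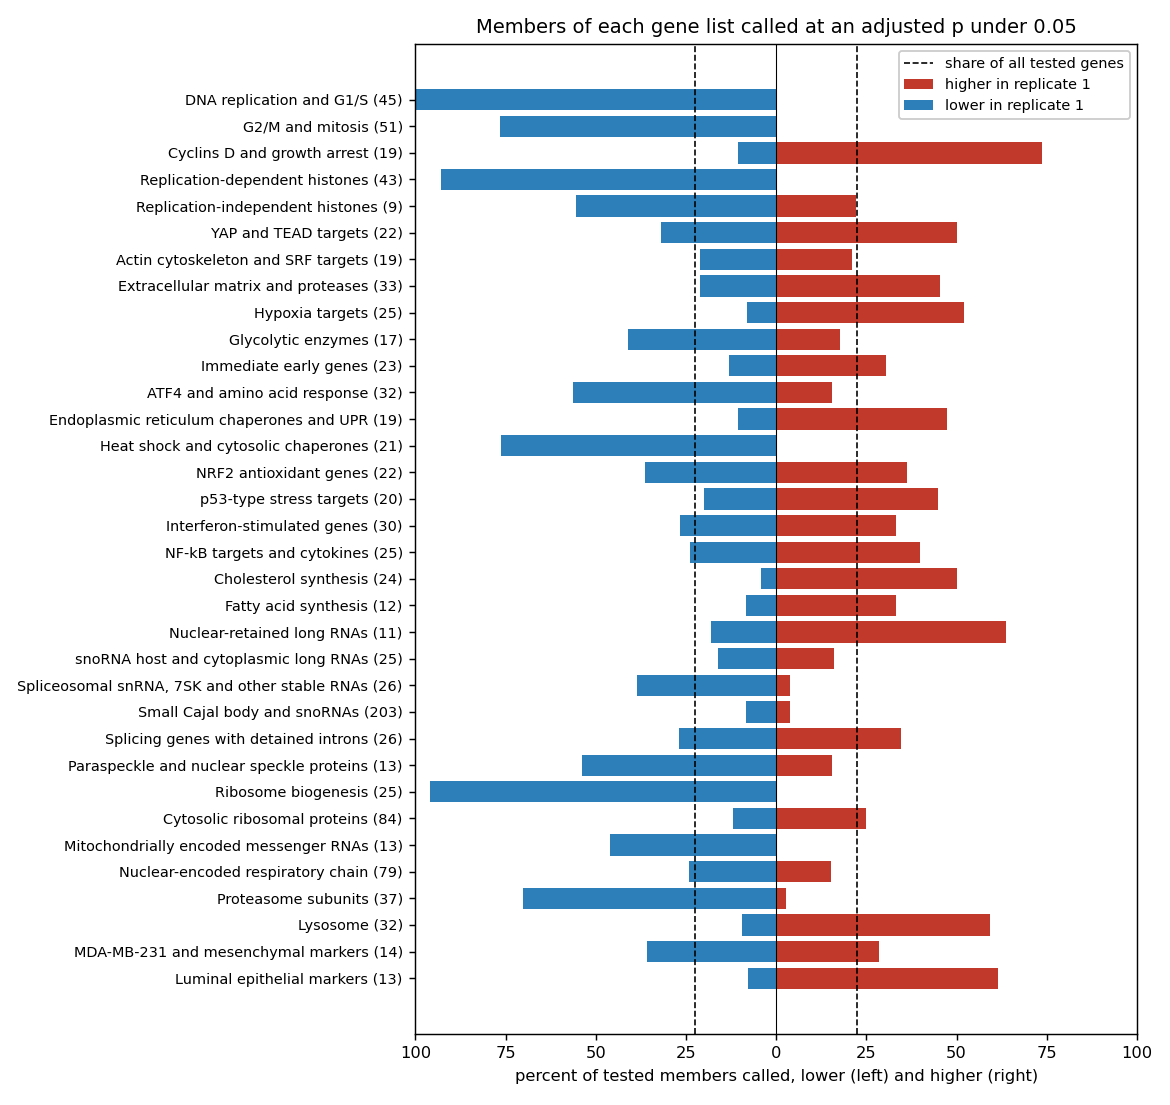
Percent of the tested members of each gene list called higher (right, red) or lower (left, blue) in replicate 1 at an adjusted p under 0.05 by edgeR, for lists with at least 9 tested members (number in parentheses). Dashed lines mark the shares over all 19022 tested genes, 22.3% higher and 22.4% lower, which the bars of DNA replication, ribosome biogenesis and replication-dependent histones exceed on the lower side.

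Genes read as reporters of cell density and of the Hippo pathway did not move in 1 direction. Of 22 YAP and TEAD targets 11 were higher and 7 lower (median 0.37), and the 7 became 4 without replicate 2, without replicate 3 or without the siRNA group term and 3 by limma on log2 TPM. The targets most used as readouts differed from each other in direction. CTGF, a matricellular protein, was at 108, 266 and 53.6 CPM in replicate 1 and at 64.5 to 352 (median 128) in the others (log2 fold change -0.30, adjusted p = 0.0301). CYR61, of the same family, had a log2 fold change of 0.50 (adjusted p = 0.00159) and ANKRD1, a nuclear ankyrin protein, of 0.45 (adjusted p = 0.00107), and for all 3 genes the sides overlapped. IGFBP3, which binds insulin-like growth factors, was at 121, 84.2 and 127 against 7.38 to 27.2 (median 19.2) (log2 fold change 2.60, SE 0.21, adjusted p = 3.03e-07), and FJX1, a Golgi kinase relative, at 11.2, 18.7 and 8.38 against 23.8 to 46.7 (median 36.8) (log2 fold change -1.50, SE 0.15, adjusted p = 2.66e-06). Of 19 genes of the actin cytoskeleton and of SRF 4 were higher and 4 lower, near the background, and 2 were higher without siControl replicate 1 or by limma on log2 TPM, which called 1 or 2 lower by pseudocount. ACTA2, smooth muscle actin, had a log2 fold change of 1.32 (adjusted p = 0.000183), and ZYX, a focal adhesion protein, of -0.60 (adjusted p = 0.00099).

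Among 33 genes of extracellular matrix and proteases 15 were higher (45.5%) and 7 lower, and the lower ones numbered 4 without siControl replicate 1 or siNELFA replicate 1, 11 without replicate 2, 4 without the siRNA group term and 3 by limma on log2 TPM. COL12A1, a fibril-associated collagen, was at 920.0 CPM in siControl replicate 1 against 176 and 109 in replicates 2 and 3, 813 against 172 and 139 in siNELFA, and 763 against 118 and 62 in siYAP (log2 fold change 2.73, SE 0.18, adjusted p = 5.38e-08). FN1, fibronectin, was at 1617, 1110 and 1905 against 398 to 729.8 (median 546) (log2 fold change 1.48, SE 0.092, adjusted p = 3.05e-08), and LAMA3, a laminin chain of basement membranes, had a log2 fold change of 1.93 (adjusted p = 7.63e-06). The collagenase MMP1 was lower, with 117, 50.9 and 110.3 against 143 to 211 (median 162) (log2 fold change -0.92, adjusted p = 0.000353). The stromelysin MMP3 was at 0.216, 0 and 0.381 against 0.781 to 10.2 (median 4.06), and it was also higher in replicate 3 than in replicate 2 (log2 fold change 2.20, adjusted p = 0.0084 by edgeR). Between replicates 3 and 2, 10 of the 33 genes were higher and 3 lower in replicate 3, against 1.7% of all genes.

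Hypoxia targets were mostly higher. Of 25 genes 13 (52%, against 22.3% of all genes) were higher and 2 lower, with a median of 0.47. For 12 of the 25 all replicate 1 libraries lay above the others, against 17% of all genes. EGLN3, the oxygen-sensing hydroxylase induced by hypoxia, was at 34.3 CPM in siControl replicate 1 against 8.78 and 6.97 in replicates 2 and 3, 34.5 against 8.76 and 5.55 in siNELFA, and 56.2 against 7.38 and 8.28 in siYAP (log2 fold change 2.42, SE 0.17, adjusted p = 8.00e-08). SLC2A3, a glucose transporter, was at 249.9, 397 and 317 against 38.4 to 119 (median 68.3) (log2 fold change 2.18, SE 0.17, adjusted p = 2.54e-07). VEGFA, the angiogenic growth factor, was at 936, 1185 and 1262 against 353 to 513 (median 448) (log2 fold change 1.33, adjusted p = 1.06e-07), and MXI1, an antagonist of growth-promoting factors, had a value of 1.69 (adjusted p = 1.57e-07). Members with known use as hypoxia markers were not uniform. CA9, a carbonic anhydrase, was not called, with 3.89, 3.92 and 9.43 against 0.915 to 10.7 (median 4.29), and ANGPTL4, an inhibitor of lipoprotein lipase, was at 1.51 CPM in siControl replicate 1 against 32.1 and 70.6 in replicates 2 and 3, 4 against 41 and 93.1 in siNELFA, and 4.57 against 36.8 and 58.2 in siYAP (log2 fold change -4.03, SE 0.39, adjusted p = 1.44e-06). Of 17 glycolytic enzymes, many of which are induced by low oxygen, 3 were higher and 7 lower. PGK1 had a log2 fold change of 0.61 (adjusted p = 3.72e-05), PGAM1 of -0.78 (adjusted p = 6.55e-06) and PKM of -0.58 (adjusted p = 2.06e-05).

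Stress programs differed in direction from one another. Over all genes 22.3% were higher and 22.4% lower. Of 32 genes of the ATF4 and amino acid response 18 (56.3%) were lower and 5 higher, with a median of -0.52. The serine synthesis enzymes PSAT1 and PHGDH were at 13.6, 21.1 and 6.29 against 52.5 to 80.6 (median 70.4) (log2 fold change -2.40, SE 0.20, adjusted p = 3.62e-07) and at 1.51, 1.88 and 1.33 against 6.64 to 9.27 (median 8.3) (log2 fold change -2.34, SE 0.24, adjusted p = 2.37e-06). In the same list NUPR1, a small stress-induced nuclear protein, was higher, at 11.5, 22.2 and 12 against 0.988 to 1.42 (median 1.25) (log2 fold change 3.58, SE 0.22, adjusted p = 2.84e-08). Heat shock proteins and cytosolic chaperones were lower in 16 of 21 cases and higher in 0, with a median of -0.59. The inducible HSPA1A, which is nearly identical to another gene, had a log2 fold change of -0.59 (adjusted p = 0.00397), and HSP90AA1, at 1194, 790.4 and 809 against 1147 to 2031 (median 1568), of -0.80 (adjusted p = 7.35e-05), with overlap between the sides. Metallothioneins, which bind zinc and copper, were lower in 4 of 6 cases and higher in 0. MT2A was at 71.6 CPM in siControl replicate 1 against 344 and 400.4 in replicates 2 and 3, 123.2 against 379.6 and 437 in siNELFA, and 105 against 351 and 364 in siYAP (log2 fold change -1.94, SE 0.13, adjusted p = 4.85e-08).

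Chaperones and other unfolded protein response genes of the endoplasmic reticulum were higher in 9 of 19 cases and lower in 2, a number that became 0 without siNELFA replicate 1 and 4 with the replicate block, with offsets for length and GC or with all genes of at least 1 count tested. HSP90B1 was at 2213, 1938 and 1883 against 942 to 1098 (median 1009) (log2 fold change 0.97, SE 0.081, adjusted p = 3.53e-07), whereas SDF2L1 had a log2 fold change of -0.97 (adjusted p = 0.00719). In the list of p53-type stress targets 9 of 20 were higher and 4 lower, and 7 were lower without siYAP replicate 2 or without replicate 2. GDF15, a secreted stress factor of the TGF-beta family, was at 35.7 CPM in siControl replicate 1 against 5.05 and 3.72 in replicates 2 and 3, 138 against 8.53 and 3.83 in siNELFA, and 85.7 against 6.88 and 3.56 in siYAP (log2 fold change 3.91, SE 0.26, adjusted p = 5.38e-08), while AEN, an apoptotic nuclease, and TIGAR, a phosphatase of sugar metabolism, had log2 fold changes of -2.13 (adjusted p = 1.70e-07) and -2.21 (adjusted p = 3.29e-06). Antioxidant genes under NRF2 were evenly divided, 8 of 22 higher and 8 lower. AKR1C2, an aldo-keto reductase with near-identical relatives, was at 31.2, 21.4 and 41.8 against 1.26 to 3.97 (median 2.33), and NQO1, a quinone reductase, and HMOX1, which degrades heme, had log2 fold changes of -1.12 (adjusted p = 1.10e-06) and -1.22 (adjusted p = 0.00116). Of 23 immediate early genes 7 (30.4%) were higher and 3 (13%) lower, near the 22.3% and 22.4% of all genes, with a median of -0.12. The 3 became 5 without siNELFA replicate 3, 7 without replicate 2, 8 with the replicate block, 9 with all genes of at least 1 count tested and 6 with offsets for length and GC. FOSL1, a partner of JUN, had a log2 fold change of -1.51 (adjusted p = 6.84e-08) and ATF3, a stress-induced factor, of 1.40 (adjusted p = 2.10e-05).

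Inflammatory lists were near the background on the lower side and above it on the higher. Of 25 NF-kB targets and cytokines 10 were higher and 6 lower. SOD2, the mitochondrial superoxide dismutase, was at 1269, 1315 and 1037 against 274 to 675 (median 387) (log2 fold change 1.61, SE 0.15, adjusted p = 1.23e-06), and the adhesion molecule ICAM1 had a log2 fold change of 1.13 (adjusted p = 1.27e-05). CSF3, the growth factor of neutrophils, was lower, at 12.6 CPM in siControl replicate 1 against 117 and 239 in replicates 2 and 3, 33.1 against 258 and 410.5 in siNELFA, and 20.9 against 115 and 212 in siYAP (log2 fold change -3.35, SE 0.28, adjusted p = 4.20e-07). Replicates 2 and 3 also differed in this list, with 11 members higher and 2 lower in replicate 3. Of 30 interferon-stimulated genes 10 were higher and 8 lower, where the 8 became 3 without siNELFA replicate 1 or without replicate 3, 2 by limma on log2 TPM, 4 without siYAP replicate 1, 5 without siNELFA replicate 3 and 13 without replicate 2. IFITM1, a membrane protein that restricts viruses, had a log2 fold change of 2.19 (adjusted p = 1.82e-08), and SAMD9, an antiviral factor, of -1.64 (adjusted p = 6.15e-05).

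Of 24 enzymes and regulators of cholesterol synthesis 12 were higher (50%) and 1 lower, and 7 were higher without siNELFA replicate 1 or by limma on log2 TPM, which called 3 lower, and 6 without the siRNA group term. INSIG1, the sterol sensor, was at 122, 162 and 114 CPM against 40.2 to 83.9 (median 58.5) (log2 fold change 1.20, SE 0.13, adjusted p = 5.63e-06). In fatty acid synthesis 4 of 12 genes were higher and 1 lower, with 3 lower without siNELFA replicate 3, without replicate 3, with offsets for length and GC or with all genes of at least 1 count tested. SCD, which makes monounsaturated fatty acids, was at 634, 789.6 and 762 against 168 to 232 (median 213) (log2 fold change 1.81, SE 0.10, adjusted p = 7.91e-09), and ACLY, which makes cytosolic acetyl-CoA, had a value of -0.55 (adjusted p = 9.66e-05). Of 79 nuclear-encoded respiratory chain subunits 12 were higher and 19 lower, close to or below the background, and without siNELFA replicate 1 the 12 became 6, without replicate 3 or by limma on log2 TPM they became 7, and the 19 became 9 without replicate 2 or without replicate 3 and 10 without the siRNA group term. NDUFA1 had a log2 fold change of 0.77 (adjusted p = 3.21e-05) and ATP5G1, a subunit of ATP synthase, of -1.09 (adjusted p = 1.03e-05). Of 13 mRNAs encoded by mitochondrial DNA 6 were lower and 0 higher. The summed level was 953.8 CPM in siControl replicate 1 against 906.1 and 917 in replicates 2 and 3, 732 against 771 and 927 in siNELFA, and 449.8 against 789 and 762 in siYAP. Thus the sum was the highest of the 9 libraries in siControl replicate 1 and the lowest in siYAP replicate 1, with median shifts of -0.13, -0.49 and -1.22, and the difference between groups was not tested for the sum. MT-CYB had a log2 fold change of -1.05 (adjusted p = 2.40e-05). Their counts made up at most 0.0957% of a library, so their values rest on a small share of the reads.

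**Figure D5:**
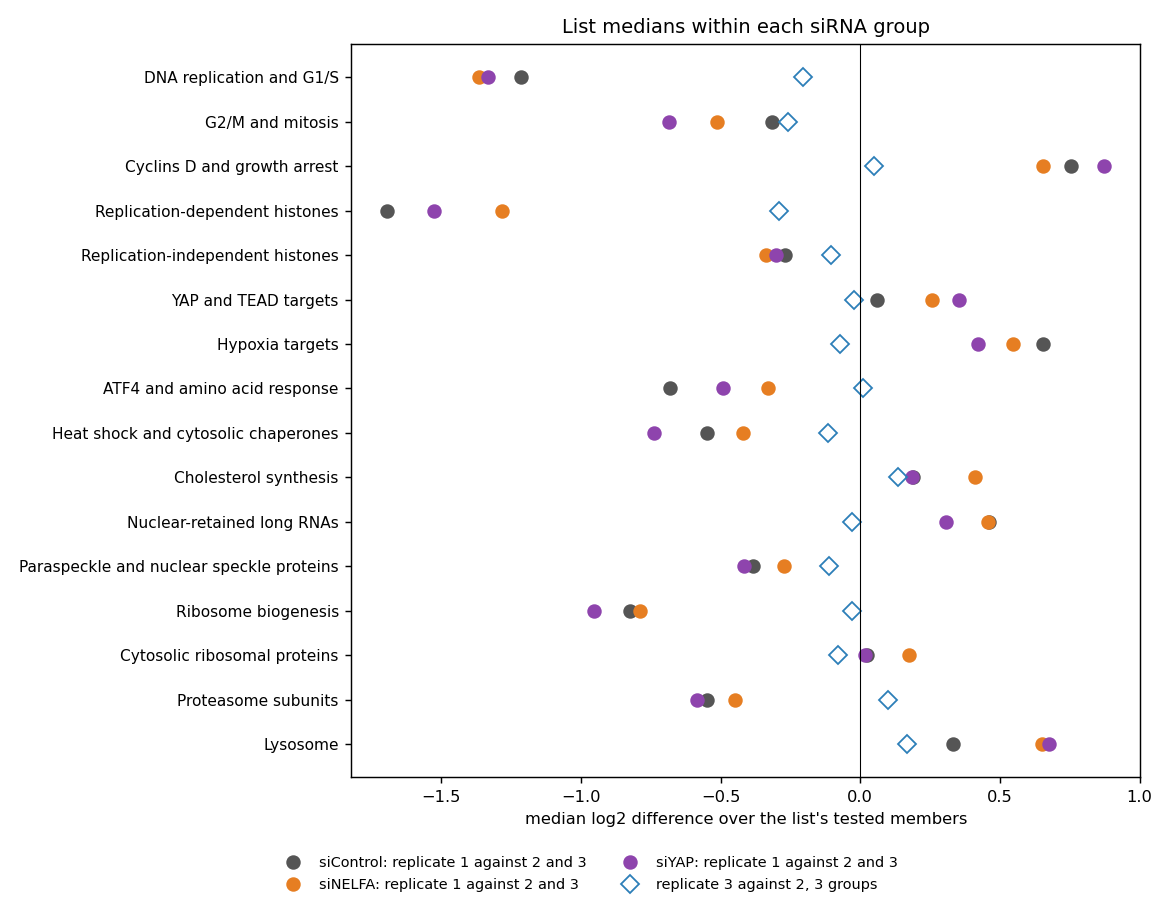
Median log2 difference over the tested members of 16 gene lists (x axis), as 3 filled points for replicate 1 against replicates 2 and 3 within siControl, siNELFA and siYAP and 1 open diamond for replicate 3 against 2 over the 3 groups. For DNA replication the filled points lie between -1.36 and -1.22 and the diamond at -0.20.

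Single genes with the largest differences were chosen by size among called genes averaging at least 50 counts. CFB, complement factor B, had the smallest adjusted p of all genes, at 674 CPM in siControl replicate 1 against 50.1 and 43.2 in replicates 2 and 3, 724 against 60.1 and 51 in siNELFA, and 742 against 64.9 and 65.8 in siYAP (log2 fold change 3.69, SE 0.093, adjusted p = 4.14e-12), and it overlaps a readthrough transcript. CDH1, the adhesion molecule of epithelia that MDA-MB-231 is known to lack, was at 24.9 CPM in siControl replicate 1 against 0.933 and 0.206 in replicates 2 and 3, 46.9 against 0.807 and 0 in siNELFA, and 16.1 against 0 and 0 in siYAP (log2 fold change 6.47, SE 0.46, adjusted p = 9.82e-08), a fitted value against libraries with few or 0 counts. ABCG1, a transporter that exports cholesterol, was at 11.5, 15.2 and 14.8 against 0.231 to 0.368 (median 0.32) (log2 fold change 5.42, SE 0.24, adjusted p = 1.59e-09). Further genes higher in every replicate 1 library were VCAM1, an adhesion molecule for leukocytes (log2 fold change 5.17), C4B, a complement component with a near-identical relative (5.12), TMPRSS2, a membrane protease (4.68), COL1A2, a chain of type I collagen (4.42), CEMIP, which degrades hyaluronan (4.41), BDKRB2, a bradykinin receptor (4.18), ADAM28, a metalloprotease (4.17), and CHI3L2, a chitinase-like protein (4.75).

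Several of these genes also differed between replicates 2 and 3. CEMIP was at 1141 CPM in siControl replicate 1 against 68.6 and 18.5 in replicates 2 and 3, 1853 against 184 and 70.4 in siNELFA, and 1264 against 81.7 and 21.4 in siYAP, and its log2 fold change of replicate 3 over replicate 2 was -1.69 (adjusted p = 4.35e-05 by edgeR). VCAM1 was at 64.6, 41.1 and 58.9 in replicate 1 and 0 to 3.83 (median 1.3) in the others, with -3.88 for replicate 3 over replicate 2 (adjusted p = 0.000239 by edgeR). LCP1, an actin-bundling protein of leukocytes that many cancer lines express, was lower in replicate 1, at 27 CPM in siControl replicate 1 against 211 and 508 in replicates 2 and 3, 28.2 against 255 and 529.5 in siNELFA, and 31.2 against 242 and 520.4 in siYAP (log2 fold change -3.71, SE 0.34, adjusted p = 8.42e-07), and its log2 fold change of replicate 3 over 2 was 1.14 (adjusted p = 6.87e-06 by edgeR). The comparisons share the libraries of replicates 2 and 3, so these values stand side by side only.

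SERPINB2, an inhibitor of plasminogen activators, had 0 counts in all 3 replicate 1 libraries and 770 in the other 6, where it was at 2.31 to 13.1 CPM. With a floor of 3 counts over the replicate 1 libraries together it was at least 81.2-fold lower there, where the floor covers counting error only. Immunoglobulin heavy chain segments were among the largest falls. IGHV3-15 was at 7.68 CPM in siControl replicate 1 against 90.7 and 72.7 in replicates 2 and 3, 4.47 against 83.8 and 57.5 in siNELFA, and 7.52 against 101 and 75.7 in siYAP (log2 fold change -3.64, SE 0.19, adjusted p = 7.91e-09). The neighbouring pseudogenes IGHV1-14 and IGHVIII-13-1 had log2 fold changes of -4.32 and -4.54, and all 3 lie on chromosome 14. IGFN1, an immunoglobulin-like muscle protein, was at 0.216, 0 and 0.191 against 2.08 to 15.2 (median 5.06), and PLXNA4, a semaphorin receptor, at 0.433, 0.313 and 0.191 against 2.42 to 7.78 (median 4.33).

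Markers were read to see whether another kind of cell accompanied replicate 1. Of 14 markers of MDA-MB-231 and mesenchymal cells 4 were higher and 5 lower, or 8 lower with offsets for length and GC or with all genes of at least 1 count tested, and their summed level was 7619 to 7894 CPM in replicate 1 and 6741 to 8643 in the others. Of 20 luminal epithelial markers 13 passed the filter, of which 8 were higher and 1 lower, and 4 were higher without siNELFA replicate 1 or by limma on log2 TPM with a pseudocount of 0.1, and 3 were lower with the replicate block. Their sum was 388 to 556 in replicate 1 and 355 to 443 in the others. CDH1, described above, had the largest log2 fold change of this list, at 6.47. EPCAM was at 16.7, 15.4 and 18.1 against 4.69 to 9.51 (median 7.34) (log2 fold change 1.26, SE 0.19, adjusted p = 9.66e-05), whereas ESR1, PGR, FOXA1, GRHL2 and ESRP1, which define luminal cells, were all under the filter. Of 9 fibroblast markers 4 passed, 2 of them higher, and the sum was 79.7 to 110 in replicate 1 and 28.4 to 39.9 in the others, carried by COL1A2 and PDGFRB, while COL3A1, DCN, PDGFRA and THY1 were under the filter. CD14 was the 1 leukocyte marker called, at 11.2, 34.4 and 14.1 against 2.09 to 5.76 (median 2.56) (log2 fold change 2.58, SE 0.19, adjusted p = 1.24e-07), with PTPRC, CD3D, CD3E and MS4A1 under the filter, and PECAM1 the 1 endothelial marker called (log2 fold change 1.34, adjusted p = 0.0012). The sum over 7 endothelial markers, of which 3 passed the filter, was 13.1 to 15.6 CPM in replicate 1 and 6.20 to 9.73 in the others. No neurofilament or red cell marker passed the filter. Whether any other kind of cell was present, and what part its RNA would have in the other differences, was not tested.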

How the data were processed

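RNA of transfected MDA-MB-231 cells was depleted of ribosomal RNA and sequenced in pairs. Per the labels and the paper's methods, STAR aligned the reads to GRCh38, and the deposited counts are raw whole numbers per gene from featureCounts. Counting options and tool versions are not given in the sources used here. The deposited TPM values, scaled by the authors per library, served as an alternative only, and the FPKM table was not used.

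Columns were matched to samples by the labels. Replicate 1 was compared with replicates 2 and 3 by edgeR 4.0.16 in R 4.3.3 (quasi-likelihood test, TMM factors, siRNA group as a block, 5 residual degrees of freedom), on genes kept by filterByExpr (minimum count 10, minimum total 15, minimum proportion 70%), with Benjamini-Hochberg adjustment over all tested genes and a threshold of 0.05. Replicate 3 against 2 and the interaction of replicate 1 with siRNA group were fitted on the same genes. Levels are TMM-normalised CPM, and SE is the log2 fold change divided by the square root of F. Because the replicates' source is given only as independent, p-values measure the spread between these libraries. They do not measure the spread between culture rounds if libraries with the same number share a round.

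The comparison and the gene lists, written from general knowledge, were chosen with earlier results of these data known. Named are MALAT1, NEAT1, the siRNA targets, the 10 largest called differences in each direction with at least 50 mean counts and no overlap within any group, and up to 3 called members per list and direction. CFB and further members known as standard markers were chosen after their values were seen. Promoters are RefSeq windows of GRCh38.p14. Shown are called members off chromosome 8, with at least 50 mean counts, whose most upstream window holds the word. The tests were run on simulated counts with 200 of 19022 genes changed, a smaller share than the 44.66% called in the data. At a log2 fold change of 1 the main comparison recovered 75.5% of them. Replicate 3 against replicate 2 recovered 64.5% and the interaction 0%. At a log2 fold change of 2 these were 89%, 90.5% and 59%. Alternatives used DESeq2 1.42.0 and limma 3.58.1, and figures matplotlib 3.10.9 under Python 3.11.15. The floor given for SERPINB2 covers counting error only.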

Additional observations from a re-analysis of the deposited data

Results flagged for a closer look

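Among the genes named, 3 had replicate 1 beyond both other replicates in opposite directions in different siRNA groups, although no difference between the groups passed the adjusted threshold of edgeR's interaction test. For NELFA, replicate 1 differed from replicates 2 and 3 by -0.1251 on the log2 scale in siControl, by 0.30 in siNELFA, where it is the knockdown target, and by 0.50 in siYAP (interaction adjusted p = 0.491). For SCARNA9, a small RNA of Cajal bodies, the differences were 1.7187 in siControl, 1.03 in siNELFA and -0.08 in siYAP (interaction adjusted p = 0.234). For RNU4-1, a copy of U4 RNA with near-identical relatives, they were 1.6402, 0.36 and -0.03 (interaction adjusted p = 0.244). With 3 libraries in a group, no library could be tested for standing apart within its own group.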

How the results depend on the processing

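The numbers of genes higher (4237) and lower (4259) in replicate 1 stayed within 1.5 times under DESeq2, limma-voom, other size factors, other filters, thinning, offsets for length and GC, a stricter threshold and without the siRNA group term, with 1 exception. By limma on log2 TPM with a pseudocount of 0.1, 2689 genes were higher. Leaving out libraries gave 3270 to 4057 higher and 3434 to 4108 lower genes. With the replicate block, in which the number is a factor with 3 levels, 4556 genes were higher and 4501 lower. Between replicates 3 and 2, leaving out single libraries moved the 324 called genes to between 77 and 176, while DESeq2 gave 484. The difference of the shift between siRNA groups gave 49 genes by DESeq2 in place of 0, and the cause was not tested. The sign turned for the median of Immediate early genes without replicate 3 (0.0414, against -0.1556 without replicate 2), for the median of NF-kB targets and cytokines without replicate 2 (-0.0794, against 0.4583 without replicate 3), for NELFA by limma on log2 TPM with pseudocounts of 1 (-0.19) and 0.1 (-0.18), and for SNORA18 with a pseudocount of 1 (-0.0338), with neither gene called there. Over all alternatives the named genes kept direction and call in 4406 cases, lost the call in 145, gained it in 3 and turned in 3. With 3 libraries against 6 and shallower replicate 1 libraries, small differences in genes with few counts were not detectable at this depth.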

Other observations

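Genes outside the lists, chosen after their values were seen, are given as single values and do not stand for a group. C1R, a protease of the complement cascade, was at 68.8, 77.2 and 78.3 CPM in replicate 1 of siControl, siNELFA and siYAP and at 6.23 to 7.59 (median 6.67) in the other 6 libraries (log2 fold change 3.45, SE 0.12, adjusted p = 1.29e-10). Other complement genes looked up had log2 fold changes of 2.83 (adjusted p = 2.81e-08) for C1S, 3.58 (adjusted p = 7.43e-07) for C2 and 0.61 (adjusted p = 4.14e-05) for C3. C2 and CFB are neighbouring genes, and C4A and C4B are near-identical. ABCA1, a transporter that exports cholesterol, was at 399.9 CPM in siControl replicate 1 against 56.9 and 55.2 in replicates 2 and 3, 442 against 88.1 and 80.1 in siNELFA, and 385 against 64.7 and 64.7 in siYAP (log2 fold change 2.60, SE 0.092, adjusted p = 1.29e-10), and MYLIP, which degrades the LDL receptor, had a log2 fold change of 1.00 (adjusted p = 2.77e-05). HLA-DRA, a chain of class II antigen-presenting molecules, was at 354 CPM in siControl replicate 1 against 97.4 and 36.1 in replicates 2 and 3, 436 against 97.4 and 37.9 in siNELFA, and 456 against 125 and 57.8 in siYAP (log2 fold change 2.48, SE 0.29, adjusted p = 8.48e-06). CD74, the chaperone of class II molecules, had a log2 fold change of 2.03 (adjusted p = 1.27e-06), and B2M, the light chain of class I molecules, of 0.94 (adjusted p = 2.10e-06).

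Some genes of the circadian clock were also looked up after their values were seen. DBP, a factor under control of the clock, was at 20.1 CPM in siControl replicate 1 against 3.13 and 2.27 in replicates 2 and 3, 28.9 against 1.84 and 2.17 in siNELFA, and 33.6 against 3.55 and 1.59 in siYAP (log2 fold change 3.50, SE 0.23, adjusted p = 4.14e-08), and PER1, NR1D1, TEF and CRY2 had log2 fold changes of 1.49 (adjusted p = 3.50e-06), 1.24 (adjusted p = 2.51e-05), 1.17 (adjusted p = 9.52e-05) and 1.05 (adjusted p = 5.25e-05) by edgeR. For CRY1 the value was -0.62 (adjusted p = 0.00075), in the opposite direction. PER2, ARNTL and CLOCK were not called, with log2 fold changes of -0.14, 0.15 and -0.03. The hour of harvest is not given in the sources used here, and its part in these values was not tested.

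The siNELFA+siYAP libraries, whose library names carry the number 1, can be set beside the others as values only, with TMM factors over all 12 libraries. MALAT1 was at 8081 to 8438 CPM in them, against 32660 to 45620 in the replicate 1 libraries of the other groups and 7129 to 9998 in replicates 2 and 3. RRM2 was at 182 to 190.4, against 32.4 to 47.4 and 180.4 to 258. The sum over DNA replication genes was 2455 to 2534, below the 2904 to 4003 of replicates 2 and 3 and above the 1167 to 1620 of replicate 1, and the sum over metallothioneins was 657 to 713, against 153 to 211 and 536 to 634.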
